A study of Rattus norvegicus with 18 samples.

Results

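At 4 and 6 weeks after fracture of the femur, mRNA expression in older rats was compared with that in young and adult rats of the same times. The comparison held 6 of the 18 arrays: the older 4 weeks and older 6 weeks arrays against the 4 young and adult arrays of those times, with time as a term. The question was which genes differed in the older rats at the end of the period studied. All rats were intact female Sprague-Dawley rats. They were 6 weeks (young), 26 weeks (adult), or 52 weeks (older) old when the femur was fixed with a steel rod in the marrow cavity and broken in a closed, simple transverse fracture. The tissue was a segment of the femoral shaft around the break, with callus, cortical bone, and marrow, and each array held a pool of RNA from 2 rats. With 1 array per age and time, the other time and the other young age stood in for replicates, so the error holds any difference between young and adult rats, and the p-values do not measure the spread between rats. The other 12 arrays are without fracture and at 3 days, 1 week, and 2 weeks, and they are used below to place the late difference in time. All 18 arrays are labeled series 1. The study also ran arrays from further independent samples of each age and time, which are not used here.

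A closed fracture heals through inflammation, then a callus of cartilage and fibrous tissue, then replacement of cartilage by bone, and last remodeling of that bone. Chondrocytes lay down collagen II, aggrecan, and COMP. Matrix metalloproteinases (MMPs) and other proteases remove this matrix as bone replaces it. Skeletal muscle lies against the femur and can be carried along with a segment of bone, and its contractile proteins, creatine kinase, and dense mitochondria set it apart from callus.

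Signals are Affymetrix Microarray Suite 5.0 intensities in arbitrary units, which the authors scaled to an average of 500 per array. Signals below a floor of 100 were set to 100 before log2, and 4389 probe sets reached 200 on at least 2 of the 6 arrays and were tested with limma. Differences are given as log2 (older minus young and adult) ± SE, and "at least" marks a fold difference whose lower group lay below the floor on 1 or more arrays. RNA integrity shows in how much Gapdh signal is left at the 5' end relative to the 3' end. This ratio was low on 1 of the 6 arrays (0.257 for young 6 weeks, against 0.717 to 0.865), so results are given with and without that array. The 2 older arrays had the highest ratios of 5' to 3' beta-actin signal (0.842 and 0.720 against 0.446 to 0.661) and the highest median signals (182.6 and 174.6 against 143.2 to 157.1). On the first principal component, with 41.2% of the variance, they lay at 25.9 and 20.9 and the 4 others at -22.9 to -0.886. The part of these array properties in the differences below was not tested.

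In the older rats 25 probe sets were higher and 62 lower at an adjusted p below 0.05, that is 0.570% and 1.41% of those tested. Among called probe sets the highest differences were those of Comp, Mmp3, and Fn1, which encode a cartilage protein, a matrix protease, and fibronectin, and the lowest those of Nmrk2 and Scn4a, which are expressed in muscle. The muscle list held 17 of the lower genes and the oxidative phosphorylation list 10. Adjusted p lay between 0.0229 and 0.0497, and 857 probe sets (19.5%) had an unadjusted p below 0.05. Of the 87 called probe sets, 76 had 1 gene symbol and stood for 68 genes, 23 higher and 45 lower. On every one of the 87, both older arrays lay beyond young and adult at the same time, which held for 24.8% of all tested probe sets above the other ages and for 16.4% below. The 87 were chosen by p-values on these same 6 arrays, so this follows largely from the choice and is no added support. Without the young 6 weeks array 59 probe sets (1.34%) were higher and 143 (3.26%) lower, and these included all 87. The counts rest on few arrays: no probe set was called without the older 4 weeks, the older 6 weeks, or the young 4 weeks array, 6 were higher and 8 lower without the adult 4 weeks array, and 15 were higher and 30 lower without the adult 6 weeks array. No probe set was called lower with no filter on low signals, and none in either direction with the filter taken over all 18 arrays. Of the 25 higher probe sets 11 reached 200 on at most 1 of the 4 young and adult arrays, and of the 62 lower ones 7 reached it on at most 1 older array. These passed the filter only through the group in which they were high, so they had to differ to be tested, and the counts are not free of this choice. The 11 are 1 unnamed probe set and those called for Mmp3, Mmp12, Fn1, Ncam1, Fgfr2, Fat1, Spon1, Cdc42bpa, Tnc, and Fmod, and the 7 are 1 unnamed probe set and those called for Nmrk2, Scn4a, Ppp1r1a, Fbp2, Nme6, and Neurl2. The median log2 difference of all tested probe sets was 0.10. Setting the array medians equal shifted it by -0.13 and gave 27 higher and 118 lower.

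**Figure D1:**
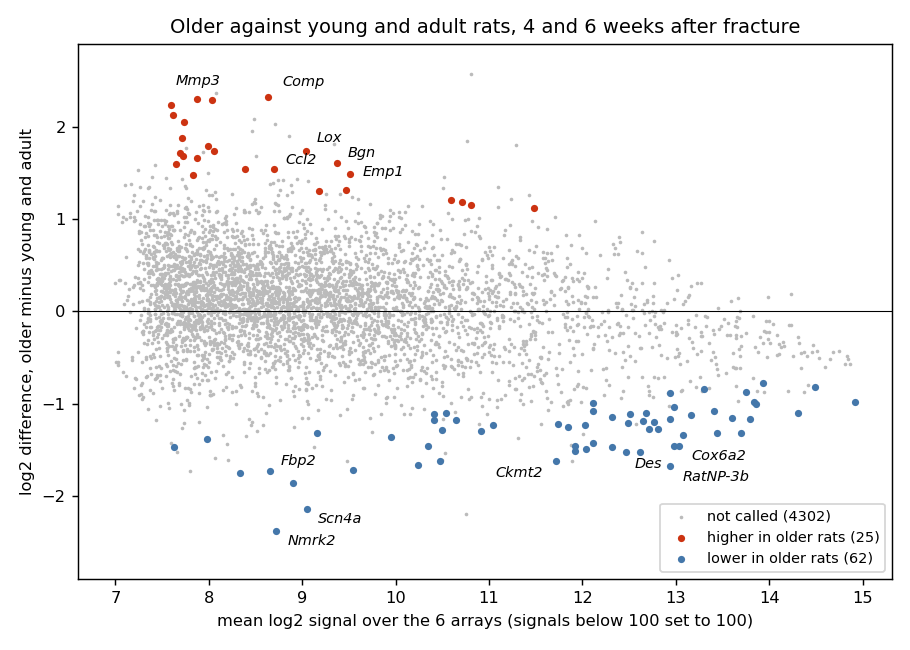
Log2 difference between older and younger rats at 4 and 6 weeks (vertical axis) against mean log2 signal over the 6 arrays (horizontal axis) for the 4389 tested probe sets. Red points are the 25 probe sets called higher in older rats, blue points the 62 called lower, and grey points the rest. The red points lie mostly at lower signals than the blue ones.

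Among the genes of cartilage matrix, Comp, which encodes cartilage oligomeric matrix protein, was up-regulated in older rats. Its signal was 149.6 in young, 450.7 in adult, and 1156.1 in older rats at 4 weeks, and 140.3, 305.8, and 1166.4 at 6 weeks. Both older arrays were above all 4 others, and adult was above young at each time. The older mean was 1161 ± 7.28 (SD, n = 2 arrays) and the mean of the others 261.6 ± 147 (SD, n = 4 arrays), and the log2 difference was 2.32 ± 0.47, or 5.01-fold (limma adjusted p = 0.0449). Of 8 tested cartilage genes this was the only one called, and 6 were above both other ages at both times. Over all tested probe sets 0.570% were called higher and 24.8% were above. Their median log2 difference was 1.39, or 1.29 above that of all probe sets, and all 8 were positive (7 with equal array medians). Of all 4389 probe sets 2562 were positive (2073 with equal array medians). Aggrecan (Acan), the main proteoglycan of cartilage, had signals of 215.3 (young), 560.2 (adult), and 993.0 (older) at 4 weeks and of 37.1, 199.6, and 895.1 at 6 weeks. The groups did not overlap, and the gene was not called with all 6 arrays (adjusted p = 0.0548) and was called without the young 6 weeks array. Collagen II (Col2a1) had the highest log2 difference of all, 2.57 ± 1.16, and was not called (adjusted p = 0.264). Its signals were 629.0, 6688.2, and 7058.9 at 4 weeks and 106.4, 2110.7, and 4869.7 at 6 weeks in young, adult, and older rats, so that the adult 4 weeks array lay above the older 6 weeks array.

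Proteases of the matrix were also among the called genes. Mmp3 encodes stromelysin 1, which cleaves proteoglycans and activates other MMPs, and Mmp12 encodes macrophage elastase. The Mmp3 signal was 119.7 in young, 202.6 in adult, and 564.3 in older rats at 4 weeks and 112.1, 132.5, and 816.6 at 6 weeks. For Mmp12 it was 159.8, 136.9, and 561.0 at 4 weeks and 213.6, 169.7, and 603.9 at 6 weeks. Both genes were above all other arrays on both older arrays, Mmp3 by 4.93-fold (log2 2.30 ± 0.35, adjusted p = 0.0229) and Mmp12 by 3.47-fold (log2 1.79 ± 0.28, adjusted p = 0.0240). Only 1 of the 4 young and adult arrays reached 200 for each gene, so both were tested because the older arrays were high. These were the 2 called of 24 tested proteases and inhibitors, none was called lower, and 15 were above both other ages at both times. Among all tested probe sets 0.570% were called higher and 24.8% were above. The list had a median of 0.44, or 0.34 above that of all probe sets, and of 0.42 without 3 genes that passed the filter only through the older arrays. Serpine2, an inhibitor of serine proteases, had a log2 difference of 1.34 ± 0.29 (adjusted p = 0.0526) and was called without the young 6 weeks array. Mmp13, the collagenase of the callus, was bright at both times, with signals of 6834.1 to 7997.5 in young and adult rats and of 10164.7 and 8691.3 in older rats, and was not called (log2 0.36 ± 0.17, adjusted p = 0.293).

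Fibrous matrix genes were measured by 23 tested genes, of which none was called in either direction on its brightest probe set. Yet 17 of the 23 were above both other ages at both times and 3 below, beside 24.8% and 16.4% of all probe sets. Their median was 0.73. Lox, which cross-links collagen, had a log2 difference of 1.46 ± 0.55 on its brightest probe set (adjusted p = 0.197), and 1 of its 4 tested probe sets was called at 1.74 ± 0.32 (adjusted p = 0.0397). In the same way 1 of 3 probe sets of fibronectin (Fn1) was called, at least 4.90-fold higher, and the range over the 3 was 0.86 to 2.29. The proteoglycan Bgn had 1 of 2 called (1.61 ± 0.34), and further single probe sets were called for tenascin C (Tnc, 1.59 ± 0.30), Fmod (1.72 ± 0.34), and P4hb (1.48 ± 0.29), a subunit of the enzyme that hydroxylates proline in collagen. The brightest probe sets of these genes were not called. The called ones of Fn1, Tnc, and Fmod passed the filter only through the older arrays. The chains of collagen I, the main protein of bone, went the other way without being called. Col1a1 had a log2 difference of -0.43 ± 0.17 and Col1a2 of -0.28 ± 0.16 (adjusted p = 0.218 and 0.363), and older was below both other ages at both times for both genes.

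Of 13 osteoblast and bone matrix genes 2 were called higher, beside 0.570% of all tested probe sets, and the median of the list was 0.15. Ibsp, bone sialoprotein, had signals of 2713.5 (young), 2882.2 (adult), and 5008.2 (older) at 4 weeks and of 1877.0, 1623.3, and 4606.9 at 6 weeks. The lowest older value was above the highest of the others, and the difference was 2.17-fold (log2 1.12 ± 0.22, adjusted p = 0.0431). Gja1, the gap junction protein connexin 43, was at least 3.34-fold higher (log2 1.74 ± 0.36), with 632.6 and 561.3 in older rats against 17.1 to 332.6. Osteocalcin (Bglap), made by mature osteoblasts, differed by -0.10 ± 0.19 and alkaline phosphatase (Alpl) by 0.18 ± 0.23, and neither was called.

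Beyond the matrix, the called genes included signals and surface proteins. Ccl2, which attracts monocytes, had signals of 358.8 in young, 305.0 in adult, and 797.7 in older rats at 4 weeks and of 271.1, 244.3, and 907.7 at 6 weeks. The groups did not overlap, and the difference was 2.92-fold (log2 1.54 ± 0.26, adjusted p = 0.0342), while a second probe set stood at 0.87 and was not called. It was the only gene called among 16 of inflammation, whose median of 0.09 was like that of all probe sets. Lgals3, galectin 3 of macrophages and other cells, was 2.31-fold higher (log2 1.21 ± 0.22), at 2558.9 and 2846.4 against 1080.8 to 1333.6. None of the other 7 tested macrophage genes was called, and the summed signal of that list ran from 24953 to 28606 in older rats and from 23131 to 28087 in the others. Other genes among the 15 highest were Ncam1, a cell adhesion molecule (at least 4.71-fold, with 1 of 2 probe sets called), the receptor Fgfr2 (at least 4.36-fold, at 200 or more on 1 of the 4 young and adult arrays, with a second probe set at -0.15), the cadherin Fat1 (at least 4.17-fold), the kinase Cdc42bpa (3.16-fold), the membrane protein Emp1 (2.80-fold), Vmp1 of autophagy (2.49-fold), and the actin cross-linker Actn4 (2.47-fold). Of these, Ncam1, Fgfr2, Fat1, and Cdc42bpa passed the filter only through the older arrays. All 17 tested genes of TGF-beta and BMP signaling were positive with none called (median 0.34), but 13 and 11 were positive with equal array medians and quantile normalization. Of all 4389 probe sets 2562 were positive, and 2073 and 2245 with these scalings. The endoplasmic reticulum and secretion list had 10 of 23 genes above both other ages at both times (24.8% of all probe sets), none called, and a median of 0.26.

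The other lists gave few calls. Des was the 1 call, lower, among 11 genes of embryonic muscle (median -0.13) and 9 of smooth muscle (median 0.51), and Fgfr2 the 1 call among 13 of other growth factors and receptors (median 0.44). No gene was called among the lists of osteoclasts (median 0.34), B cells (-0.46), T and NK cells (0.21), MHC class II (0.41), mast cells (0.29), the interferon response (-0.03), endothelium (0.53), adipocytes and lipid metabolism (0.37), cell division (-0.14), immediate early genes (0.02), insulin-like growth factors (0.05), Schwann cells (-0.07), neurons (0.18), and antioxidants (-0.13). Among the widest positive differences in these lists were those of Gal, the neuropeptide galanin (1.50 ± 0.35, adjusted p = 0.0672), the fatty acid desaturase Scd (1.35 ± 0.50), Cav1 of caveolae (1.32 ± 0.29, adjusted p = 0.0548), the calcium-binding S100b (1.27 ± 0.40), Mmp9 of osteoclasts (1.26 ± 0.43), the cyclin Ccnd1 (1.10 ± 0.32), and the growth factor Igf1 (0.95 ± 0.25, adjusted p = 0.0892). For Igf1 the older arrays had 2466.1 and 1777.0 and the others 940.1 to 1416.6, without overlap and without a call. Another probe set stood at 0.27 for Igf1 and at 0.61 for Ccnd1. Without the young 6 weeks array, 1 gene was called higher in each of the interferon, endothelium, and neuron lists, beside 1.34% of all tested probe sets. In the embryonic muscle list 2 were then called lower, beside 3.26% of all.

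**Figure D2:**
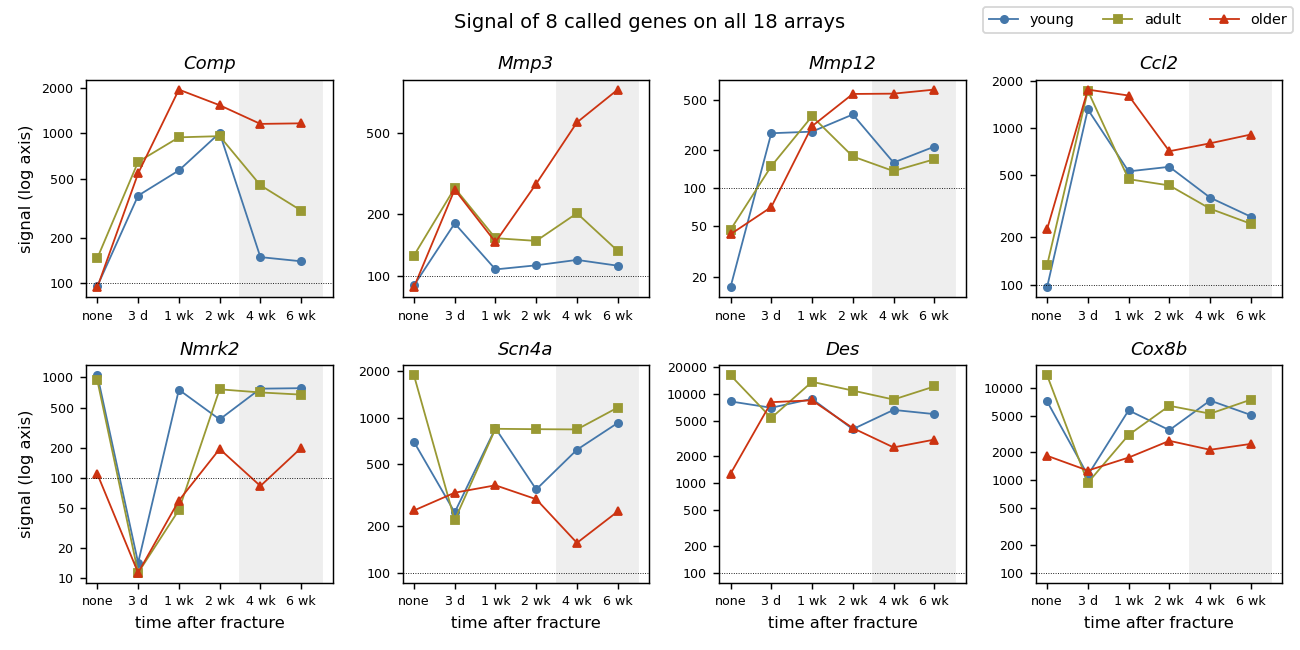
Signal (vertical log axis, arbitrary units) at each time (horizontal axis) for 4 genes called higher and 4 called lower at 4 and 6 weeks, 1 point per array. Blue circles are young, olive squares adult, and red triangles older rats, grey shading marks the 2 times compared, and the dotted line is the floor of 100. In the shaded part the older points lie above both other ages in the upper row and below them in the lower row.

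Of 39 tested genes of mature skeletal muscle, 17 were called lower in older rats and 0 higher, and 36 were below both other ages at both times. Of all tested probe sets 1.41% were called lower and 16.4% were below both other ages at both times. The median log2 difference was -0.99. The number called ran from 0 to 32 over the settings tried. It was 30 without the young 6 weeks array, 0 without the young 4 weeks, older 4 weeks, or older 6 weeks array, 1 without the adult 4 weeks array, and 0 with no filter or the filter over all 18 arrays. Scn4a, the sodium channel of muscle, had signals of 622.4 in young, 841.4 in adult, and 156.0 in older rats at 4 weeks and of 926.2, 1164.2, and 248.7 at 6 weeks. This was 4.40-fold lower in older rats (log2 -2.14 ± 0.26, adjusted p = 0.0229) with no overlap, although a second probe set of the gene stood at 0.88 and was not called. The called probe set passed the filter only through the young and adult arrays. Desmin (Des), the intermediate filament of muscle, was at 6632.1, 8663.3, and 2525.2 at 4 weeks and at 5951.4, 12122.6, and 3085.0 at 6 weeks. Both older values were below every other, by 2.87-fold (log2 -1.52 ± 0.29). Smaller differences were found for the most abundant muscle mRNAs, such as muscle creatine kinase (Ckm), which fell to 17509.0 and 22137.5 from 28222.4 to 49236.2 (log2 -0.99 ± 0.18), and the fast myosin Myh4 (log2 -0.77 ± 0.16). The value of 49236.2 was the highest signal on any of the 18 arrays. Whether the upper limit of the detector made these differences smaller was not tested. The troponins Tnnc2 (-1.16 ± 0.17) and Tnni2 (-1.28 ± 0.20), the light chains Myl1 and Myl3 (-1.13 ± 0.19 and -1.16 ± 0.21), and the calcium buffer Pvalb (-1.16 ± 0.23) were called as well. The slow myosin Myh7 had a log2 difference of -0.86 and actin Acta1 of -0.57, without a call. In bulk tissue, fewer muscle fibers and less mRNA per fiber cannot be told apart.

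Energy genes of muscle lay beside them. Nmrk2, which makes NAD from nicotinamide riboside, was the lowest called gene, with 771.8 in young, 707.8 in adult, and 82.8 in older rats at 4 weeks and 780.6, 673.4, and 198.2 at 6 weeks. The 4 younger values were close to each other and both older values far below, by at least 5.20-fold (log2 -2.38 ± 0.30, adjusted p = 0.0229). Mitochondrial creatine kinase (Ckmt2) was 3.08-fold lower (-1.62 ± 0.21), with signals of 1549.1 and 1638.7 in older rats and 3853.5 to 5356.4 in the others, and both of its probe sets were called. Without the young 6 weeks array 6 of 18 tested glycolysis genes were called lower, beside 3.26% of all tested probe sets. With all 6 arrays 3 were called lower, beside 1.41% of all tested probe sets: Pfkm (-1.52 ± 0.31, with a second probe set at 0.16), Eno3 (-1.51 ± 0.24), and the glucose transporter Slc2a4 (-1.17 ± 0.24). These are the muscle forms of phosphofructokinase and enolase and the insulin-responsive transporter of muscle and fat, and 2 of the 3 stand on the muscle list too. Muscle glycogen phosphorylase (Pygm, -1.46 ± 0.22) and the muscle form of fructose bisphosphatase (Fbp2, -1.73 ± 0.30, with a second probe set at -0.96) were also called, as were Ppp1r1a, an inhibitor of protein phosphatase 1 (-1.87 ± 0.35), and the small heat shock protein Hspb6 (-1.50 ± 0.21). The called probe set of Fbp2 and the one given for Ppp1r1a passed the filter only through the young and adult arrays.

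Among 34 genes of oxidative phosphorylation, 10 were called lower, 0 higher, and 29 were below both other ages at both times (median -0.73). The shares over all tested probe sets were 1.41% called lower and 16.4% below. Over the settings the number called was 0 to 21, with 17 without the young 6 weeks array, 4 without the adult 6 weeks array, and 0 without any other single array, with no filter, or with the filter over all 18 arrays. The muscle subunits of cytochrome oxidase, Cox6a2 and Cox8b, are on the muscle list too. Cox8b had signals of 7269.9 (young), 5243.1 (adult), and 2135.4 (older) at 4 weeks and of 5073.3, 7427.5, and 2471.1 at 6 weeks. Older was below all others, by 2.68-fold (log2 -1.42 ± 0.24, adjusted p = 0.0341). Subunits that all tissues use were called as well, among them Ndufa5 of complex I (-1.29 ± 0.22), Uqcrfs1 and Cyc1 of complex III (-1.11 ± 0.21 and -1.26 ± 0.24), Cox5b (-1.23 ± 0.23 on its brightest probe set), and Atp5po of ATP synthase (-1.28 ± 0.19, with a second probe set at -0.06 that was not called). The liver and widespread forms Cox6a1 and Cox8a had log2 differences of -0.28 and -0.26 and were not called. The summed signal of the 40 muscle genes on the array was 185667 and 223417 in older rats and 361258 to 453437 in the others, and that of oxidative phosphorylation 100055 and 100129 against 167489 to 201832. The part of muscle in the lower mitochondrial signals was not tested. Ribosomal proteins, a group mostly expressed in all cells but with 1 member (Rpl3l) on the muscle list too, had 0 of 39 called and a median of -0.16. Of the 39, 31 were negative (1827 of all 4389) and 14 were below both other ages at both times (16.4% of all). The median was -0.29 with equal array medians and 0.07 with quantile normalization, where all probe sets had -0.03 and 0.01.

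Neutrophil genes had a median of -1.48 over 6 tested genes, with 1 called lower, beside 1.41% of all tested probe sets. The median was -2.22 against young and -0.61 against adult rats alone, where muscle had -0.90 and -1.08. RatNP-3b, a neutrophil defensin, had signals of 10482.6 in young, 4837.6 in adult, and 2954.3 in older rats at 4 weeks and of 24470.9, 14281.6, and 4391.8 at 6 weeks. The 2 older values were below the 4 others, 3.20-fold by mean log2 signal (log2 -1.68 ± 0.35, adjusted p = 0.0493). S100a9, a subunit of calprotectin in neutrophils, was at 7638.5, 1532.8, and 1089.5 at 4 weeks and at 14746.9, 5445.1, and 2953.9 at 6 weeks. Here the older 6 weeks array was above the adult 4 weeks array, and the gene was not called (log2 -1.63 ± 0.58, adjusted p = 0.177). The summed signal of the list was 6826 and 12671 in older rats and 9105 to 61540 in the others, with the young arrays highest at both times. The 10 tested erythroid genes, also of marrow, had a median of -0.50 and none called.

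**Figure D3:**
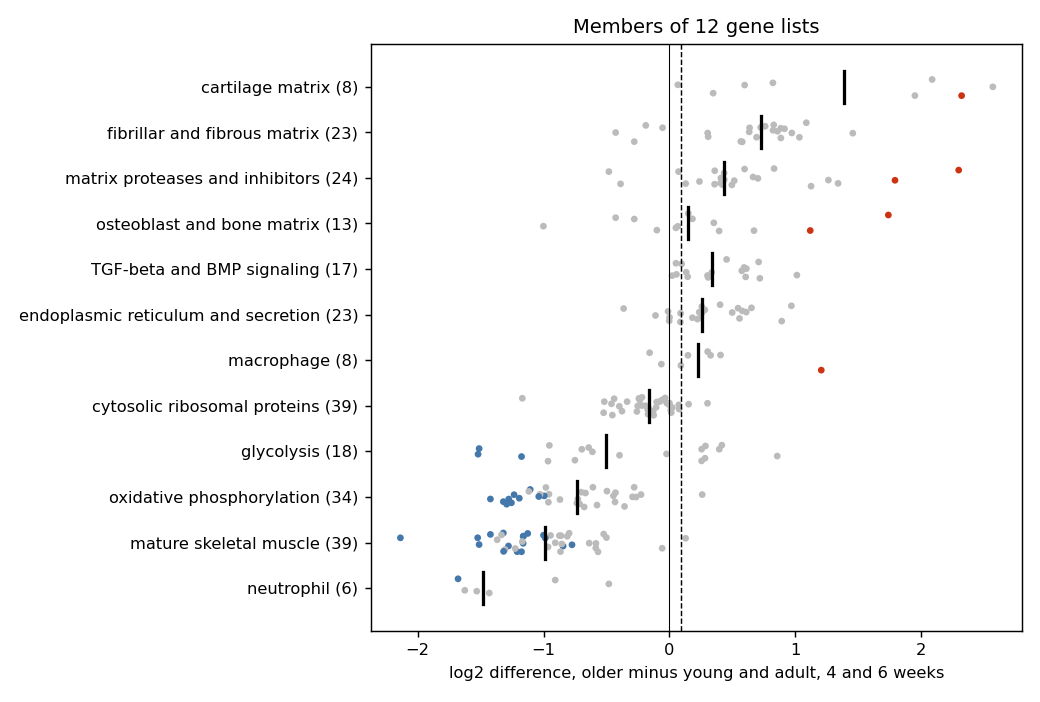
Log2 difference between older and younger rats at 4 and 6 weeks (horizontal axis) for the tested members of 12 gene lists (rows, number tested in brackets), 1 point per gene. Red points were called higher, blue points lower, grey points neither, black bars are list medians (1.39 for cartilage matrix, -0.99 for muscle), and the dashed line is the median of all probe sets, 0.10.

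The earlier arrays placed these differences in time. At 1 and 2 weeks 24 of the 25 higher probe sets were also positive and 61 of the 62 lower ones also negative in older rats, where 52.7% of all tested probe sets were positive and 47.0% negative, and their medians were 1.01 and -0.96. At 4 and 6 weeks, the values by which they were chosen, the medians were 1.66 and -1.27. The test of a departure from 1 and 2 weeks called 0 probe sets with limma (lowest adjusted p = 0.998), and 147 (3.35%) had an unadjusted p below 0.05. With no filter on low signals 22 were called. Mmp3 was among the 147 and was not called, with a late difference larger by 1.64 ± 0.50. It was named for its late difference and passed the filter only through the late older arrays, so this value is not independent of that choice. In older rats its signal was 146.3 at 1 week and 282.5 at 2 weeks, and in the others it stayed between 107.5 and 152.9.

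Intact bone gave another picture for the higher than for the lower probe sets. Of the 62 lower probe sets 59 were also lower in older rats before fracture (median -1.75), whereas 9 of the 25 higher ones were higher (median -0.17), beside 42.9% lower and 56.4% higher of all tested. The muscle list had a median of -1.74 without fracture, 0.26 at 3 days, and -1.23 and -0.82 at 1 and 2 weeks. For oxidative phosphorylation it was -1.38 without fracture and for fibrous matrix -1.18, where the summed signal of the fibrous matrix list was 28905 in older, 51753 in adult, and 107290 in young rats. The collagen chain Col5a2, for example, had 517.7 in older rats without fracture against 878.3 in adult and 5073.0 in young rats, and 9384.7 and 10474.2 at 4 and 6 weeks against 3825.0 to 7870.3. For neutrophil genes the median was 1.14 without fracture. With limma no probe set passed the test of a departure from the difference without fracture (lowest adjusted p = 0.0537), which has 1 older and 2 other unfractured arrays, and 606 (13.8%) had an unadjusted p below 0.05. Of the 23 fibrous matrix genes 18 were among these, of the 6 neutrophil genes 6, of the 39 muscle genes 13, and of the 8 cartilage genes 4. Without the adult array without fracture, 31 probe sets were called higher and 15 lower, and with no filter 23 and 149.

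**Figure D4:**
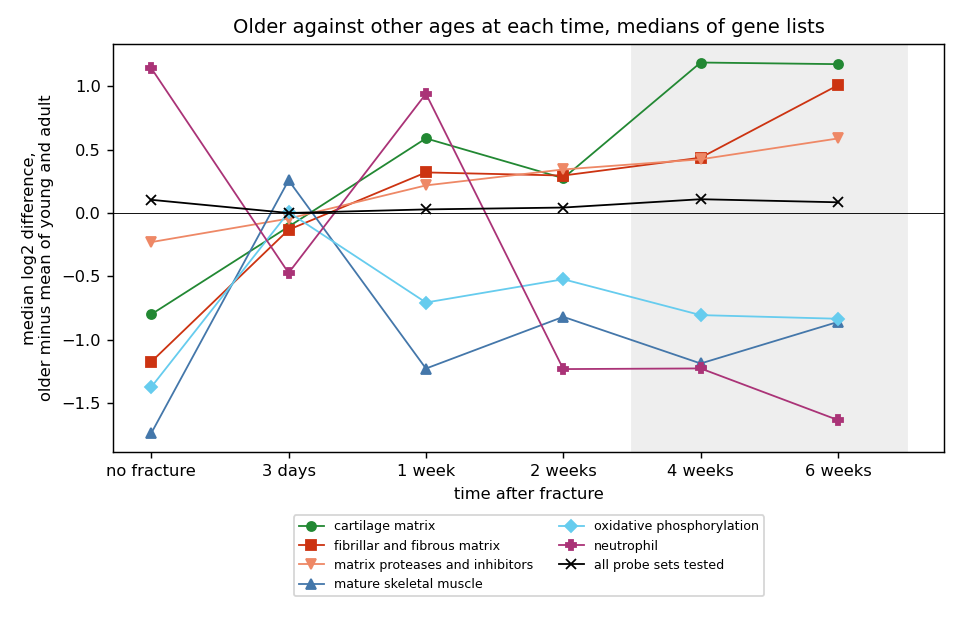
Median log2 difference between older rats and the mean of young and adult rats (vertical axis) at each time (horizontal axis) for 6 gene lists and all tested probe sets (black crosses). Each point rests on 1 older, 1 adult, and 1 young array, and grey shading marks the times compared. Fibrous matrix rises from -1.18 without fracture to 1.01 at 6 weeks, and neutrophil genes run from 1.14 to -1.64.

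The called genes stood between the ages in different ways. On average over 4 and 6 weeks, adult was above young in 15 of the 25 higher probe sets and below young in 23 of the 62 lower ones. Against adult rats alone 14 probe sets were higher and 42 lower, and against young rats alone 68 and 76. For the study's own nerve-related genes, chosen partly on these arrays and so no independent evidence, 1 of 15 tested entries was called. This was Spon1, F-spondin, at least 3.21-fold higher (log2 1.68 ± 0.32, adjusted p = 0.0401), with 503.3 and 423.9 in older rats against 77.1 to 233.0. Spon1 passed the filter only through the older arrays. It belonged to the 6 tested genes with a stronger response in older rats, of which Thbs4 (0.64 ± 0.26), Chrna1 (0.58 ± 0.28), C1s (0.55 ± 0.29), Camk2b (-0.34 ± 0.48), and a probe set with no symbol (0.66 ± 0.33) were not called. The 3 entries with a weaker response were Ptprz1 (0.81 ± 0.33) and both probe sets of Cdk17 (0.32 ± 0.31 and -0.04 ± 0.39). Among those with prolonged down-regulation, Lypd8l1 had -1.61 ± 0.57, Nrgn -1.49 ± 0.59 and -0.70 ± 0.53, Npy 0.13 ± 0.34, Nnat 0.57 ± 0.33, and Sncg 0.79 ± 0.32. The median of these 6 entries was -0.83 against young and 0.17 against adult rats alone. The study tested its examples otherwise. It set young against older rats at 4 and 6 weeks for prolonged down-regulation and at 1 and 2 weeks for a weaker response. For a stronger response it tested peak values against age.

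Promoters of the called genes are shown for 4 genes, chosen because their windows hold the letters searched, with those letters in capitals. The windows are the 250 bases before the gene start in RefSeq (GRCr8), which held 15 of the 23 higher and 36 of the 45 lower genes, the latter with 39 windows. The search covered both strands for TGANTCA (AP-1 letters), CAGCTG (an E-box, as bound by the MyoD family in muscle), CTANNNNTAG (MEF2 letters), and TATAAA (the TATA box), whose matches do not overlap. N stands for any base, so the AP-1 and MEF2 letters are looser than the motifs of these factors. Printed are the last 150 bases, on the strand of the gene. They come from chr8:12925131-12925280 (+) for Mmp3, chr8:12866502-12866651 (+) for Mmp12, chr1:192219717-192219866 (-) for Cox6a2, and chr1:213119655-213119804 (+) for Pygm.
Mmp3: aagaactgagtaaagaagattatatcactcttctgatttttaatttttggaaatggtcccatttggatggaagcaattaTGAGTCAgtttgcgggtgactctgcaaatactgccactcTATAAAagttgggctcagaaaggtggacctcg
Mmp12: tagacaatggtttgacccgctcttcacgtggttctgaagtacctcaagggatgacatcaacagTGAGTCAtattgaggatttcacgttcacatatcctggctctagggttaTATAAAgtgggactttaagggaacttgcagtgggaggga
Cox6a2: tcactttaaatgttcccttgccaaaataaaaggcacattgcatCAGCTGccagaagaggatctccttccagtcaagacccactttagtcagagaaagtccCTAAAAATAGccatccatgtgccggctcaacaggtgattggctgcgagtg
Pygm: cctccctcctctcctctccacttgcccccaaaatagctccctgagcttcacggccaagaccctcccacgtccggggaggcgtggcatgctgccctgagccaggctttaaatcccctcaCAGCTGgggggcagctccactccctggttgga

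The AP-1 letters began 71 bases before the start in Mmp3 and 87 in Mmp12, each with a TATA box nearer to the start, at 32 and 39 bases. In Cox6a2 the E-box began at 107 and the MEF2 letters at 50 bases, and in Pygm the E-box at 32. Of the 15 windows of higher genes 4 held the AP-1 letters, beside 6.34% of all 33469 windows. Of the 39 windows of lower genes 16 held the E-box (41.0%) and 5 the MEF2 letters (12.8%), beside 12% and 3.41% of all windows. Windows counted through the looser letters include those of Cox5b, Des, and Ckmt2, whose middle MEF2 bases are not all A or T. They also include that of Emp1, whose middle AP-1 base is T. These counts describe letters in a window and not binding of a factor.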

How the data were processed

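The data used were 18 Affymetrix rat oligonucleotide arrays of series 1 of the study, 1 per age and time, and 6 were compared. The deposited values are intensities that the authors made with Microarray Suite 5.0 and scaled to an average of 500 per array. The software's detection calls were left out. Of 8799 probe sets 59 were controls, and platform annotation updated through gene identifiers gave 1 symbol to 7006, several to 308, and none to 1426. A floor of 100 was applied before log2, and probe sets at 200 or more on at least 2 of the 6 arrays were tested (4389, standing for 2735 genes).

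limma 3.58.1 in R 4.3.3 (lmFit, eBayes with trend, two-sided) fitted older against the other ages with time as a term and 3 residual degrees of freedom, with Benjamini-Hochberg adjustment over all tested probe sets and a threshold of 0.05. Departures of the late difference from that at 1 and 2 weeks and from that without fracture were fitted on 12 and 9 arrays. The 34 gene lists were described by counts and medians, each gene standing by its brightest probe set. The members and lists were chosen with earlier results of these data known.

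Genes were named by a rule: the 15 highest and the 15 lowest called log2 differences with 1 symbol, at least 500 as the mean of the higher group, and both older arrays beyond both other ages; up to 4 called members of each list, or the 2 with the largest difference where none was called; and the nerve lists of the study. Other genes in the text (among them Acan, Col2a1, Serpine2, Mmp13, Col1a1, Col1a2, Col5a2, Bglap, Alpl, S100a9, and further called or uncalled list members) were chosen after their values were seen. The steps were tested on simulated data. The settings varied were the floor (20 and 200), the filter (none, at 500, over all 18 arrays), quantile normalization, equal array medians, robust moderation, array weights, no time term, a spread from 12 arrays, older against adult or young alone, age as a linear term, an ordinary two-sample test (unadjusted p below 0.005), 1 probe set per gene, and the set of arrays, with each omitted once. The number of arrays limits the precision. Plots were made in Python 3.11.15 with matplotlib 3.10.9.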

Additional observations from a re-analysis of the deposited data

Results flagged for a closer look

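Among 88 named probe sets, 6 had 1 of the 4 young and adult arrays far from the other 3 at 4 and 6 weeks, by the gap to the nearest array over the whole range. Chance flags about 1 in 20 groups. For Fgfr2 the young 4 weeks array was highest at 208.9, with the nearest at 68.7. The Ckmt2 signal of the adult 4 weeks array was lowest at 3853.5, with the nearest at 5299.7. For RT1-Bb, of MHC class II, the adult 6 weeks array was highest at 702, next to 454.3. Ddit3, of the stress response, was lowest on the adult 4 weeks array at 152.1, next to 249. The myelin gene Prx was lowest on the adult 6 weeks array at 176.8, next to 266.4. Nnat was highest on that array at 554.8, next to 332.2. Fgfr2 and Ckmt2 were called, and in all 6 genes both older arrays lay beyond the 2 other ages at the same time.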

How the results depend on the processing

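The 37 called named probe sets kept their sign in all 800 values under alternatives and kept the call in 433. On each of them both older arrays lay beyond both other ages at both times. Leaving out 1 array, 1 of the other ages, or the time term could therefore not reverse the sign, and the 800 values are no test of it. Counts of calls moved with many settings. The main count of 25 higher and 62 lower became 11 and 38 with a floor of 20, 23 and 39 with a floor of 200, 15 and 0 with no filter, 27 and 118 with equal array medians, 0 and 0 with the filter over all 18 arrays (4669 probe sets, lowest adjusted p = 0.0527), 232 and 258 with array weights, 14 and 45 with no time term, 42 and 45 with the spread of 12 arrays, 14 and 42 against adult rats, 68 and 76 against young rats, and 16 and 14 with age as a linear term. An ordinary two-sample test gave 131 probe sets at an unadjusted p below 0.005, a threshold that the study set for comparing pairs of arrays and not for its own tests across arrays, and 1 higher and 1 lower after Benjamini-Hochberg adjustment. Leaving out 1 array gave 0 to 59 higher and 0 to 143 lower. With limma 475, 320, and 745 probe sets had an unadjusted p below 0.05 without the older 4 weeks, older 6 weeks, and young 4 weeks arrays, where none was called, and 883 with the filter over all 18 arrays. The called muscle genes numbered 0 to 32 over all settings. The departure from 1 and 2 weeks had 8 higher and 14 lower calls with no filter, and 0 of each with any array left out. The departure from no fracture had 23 and 149 with no filter, 10 lower with a filter at 500, and 0 to 31 higher and 0 to 15 lower with 1 array left out. The cause of these moves was not tested. The fit without the older no fracture array gave no value, since that array is the only older one there. No pairing across series was possible because all arrays are labeled series 1, with 1 array per age and time. Arrays of the same time are matched through the time term.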
